A study of Bos taurus with 44 samples.

Results

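The mitochondrial ribosomal protein genes were examined in cattle uterine tissue: every gene whose annotated symbol starts with MRPL or MRPS followed by a digit. The array named 63 such genes among 8073 named genes, 42 MRPL and 21 MRPS, and each was represented by 1 probe, the one with the fewest missing values and then the first row. By the known composition of the ribosome, 43 of the 63 encode proteins of the large subunit and 19 proteins of the small subunit. The remaining gene, MRPS36, is now assigned to the oxoglutarate dehydrogenase complex and not to the ribosome, and it was kept because its symbol meets the rule.

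Mitochondrial ribosomes translate the few messages of the mitochondrial genome, which encode core subunits of the respiratory chain and of ATP synthase. Their proteins are all made from nuclear genes, translated in the cytosol and imported, so building a ribosome depends on many nuclear genes being expressed together. In the uterus this machinery serves a lining that is remodelled in each cycle and in early pregnancy, when the ruminant endometrium responds to interferon tau from the conceptus.

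RNA from the caruncular or the intercaruncular area, the areas with and without the sites of later placental attachment in ruminants, was hybridised on 44 two-channel arrays. In each area, 5 animals labelled IVF-ET (in vitro fertilisation and embryo transfer) were set against 5 animals labelled AI (artificial insemination) in a dye-swapped loop of 10 arrays. In the intercaruncular area, 5 animals labelled SCNT (somatic cell nuclear transfer) and 4 other AI animals were each set against the same 5 animals labelled CJ, which the labels describe with the word cycle, on 10 arrays apiece. In the caruncular area, 2 SCNT pools were set against 2 AI pools on 4 arrays. AI animals set against IVF-ET and those set against CJ carry different label prefixes (IAT and IAJ) and are numbered separately here. The labels give no age, breed or day of collection and name no drug or genotype. The number of animals in a pool is not stated, nor is it stated whether the animals of the intercaruncular arrays are in them.

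Values are log2 ratios between 2 channels, so they carry differences and no levels, and the labelled area could not be checked against marker levels. No label says which channel was divided by the other. The ratio was read as Cy5 divided by Cy3, the likely direction, because this puts the interferon-stimulated genes ISG15 (4.65 on the log2 scale) and RSAD2 (5.44) higher and the oxytocin receptor gene OXTR (-3.54) lower in SCNT than in CJ animals, as is known for early ruminant pregnancy, and every sign below turns under the other reading. AI animal 3, on 4 arrays, stood apart from its group in genes outside the members. It had ISG15 at -0.23, RSAD2 at -0.34 and MX1, also interferon-stimulated, at -0.63 against CJ. The other 3 AI animals had 3.93 to 5.56, 5.03 to 6.3 and 4.42 to 4.64 for these genes. OXTR stood at -1.19 in AI animal 3 and at -4.34 to -2.73 in the other AI animals. Member calls against CJ in AI animals, or between SCNT and AI animals, that changed without this animal are given both ways. Other values include it unless stated.

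Every probe had 2 spots, which show how repeatably a gene was read. The correlation between the 2 spots of a member's probe over the 44 arrays had a median of 0.793, beside 0.733 for all probes, and ran from 0.269 for MRPS36 to 0.935 for MRPL57. None of the 63 lacked a value. The spread of a member over arrays was close to that of other probes, with a median SD of 0.302 beside 0.310 on the log2 scale.

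Against CJ, the intercaruncular tissue of SCNT animals showed a difference in 21 of the 63 members: 15 were lower and 6 were higher. The members that fell furthest were MRPL24 and MRPL13 of the large subunit and MRPS11 of the small subunit, by 0.50 to 0.56 on the log2 scale, and the one that rose furthest was MRPS18B, by 0.63 or 1.55-fold. Calls are adjusted p below 0.05 from limma, with Benjamini-Hochberg adjustment over all 13824 probes tested. Of all probes tested, 21.7% were called, 10.4% higher and 11.3% lower, so the members' 9.52% higher lay near the background and their 23.8% lower was above it. The median of the 63 differences was -0.05, beside 0.01 for all probes. At an unadjusted p below 0.05 there were 34 of the 63 members (beside 31.6% of all probes). In bulk tissue, fewer cells of a type and less RNA per cell cannot be told apart.

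Large-subunit members supplied 9 of the 15 that fell. MRPL23, which lines the exit of the tunnel through which the nascent chain leaves (Entrez gene 508825), had the smallest p of all members. Its values against CJ were -0.38, -0.43, -0.40, -0.43 and -0.61 in SCNT animals 1 to 5. All 5 animals were therefore below 0, with animal 5 lowest, and the fitted difference was -0.45 ± 0.05 (SE; limma, adjusted p = 5.21e-06). MRPL13 stood at -0.47, -0.52, -0.44, -0.57 and -0.69 in the same animals, a difference of -0.54 ± 0.08 (limma, adjusted p = 3.6e-05). MRPL24, another protein near the tunnel exit, stood at -0.79, -0.40, -0.49, -0.47 and -0.63, a difference of -0.56 ± 0.10 (limma, adjusted p = 0.000331). No animal was above 0 for any of these 3 genes.

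MRPL17, MRPL16, MRPL22 and MRPL52 fell too. MRPL17 varied most among them, from -0.70 in SCNT animal 1 to -0.09 in animal 2, with a difference of -0.46 ± 0.12 (limma, adjusted p = 0.00804). MRPL16 ran from -0.67 to -0.19 (difference -0.39 ± 0.09; limma, adjusted p = 0.00347), and MRPL22, a tunnel-wall protein, from -0.55 to -0.14 (difference -0.32 ± 0.09; limma, adjusted p = 0.0173). MRPL52, which has no counterpart in bacterial ribosomes, ran from -0.52 to -0.20 (difference -0.39 ± 0.10; limma, adjusted p = 0.00471). The other 2 large-subunit genes that fell were MRPL39 (-0.31) and MRPL15 (-0.28).

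Small-subunit members supplied the other 6. MRPS11, a protein of the platform, stood at -0.41, -0.39, -0.60, -0.50 and -0.60 in SCNT animals 1 to 5, a difference of -0.50 ± 0.09 (limma, adjusted p = 0.000359). MRPS27, a pentatricopeptide-repeat protein of the small subunit, stood at -0.16, -0.18, -0.30, -0.52 and -0.47, a difference of -0.33 ± 0.08 (limma, adjusted p = 0.00454). MRPS6 was less even, at -0.69, -0.14, -0.40, 0.02 and -0.57, with animal 4 at the CJ level (difference -0.36 ± 0.12; limma, adjusted p = 0.0384). MRPS34 (-0.30), MRPS17 (-0.30) and MRPS16 (-0.26) also fell. By subunit, 9 of 43 large-subunit (20.9%) and 6 of 19 small-subunit members (31.6%) fell, beside 11.3% of all probes. The 4 and 2 that rose were 9.3% and 10.5%, near the 10.4% of all probes. The difference between the subunits was not tested.

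The 6 members that rose were MRPS18B, MRPL32, MRPL33, MRPL19, MRPL14 and MRPS2. MRPS18B (Entrez gene 510824), one of the 3 mammalian relatives of bacterial S18, stood at 0.81, 0.52, 0.45, 0.53 and 0.86 in SCNT animals 1 to 5. The difference was 0.63 ± 0.11 (limma, adjusted p = 0.000182). Every SCNT animal was well above 0 for this gene, whereas the next members were less even. MRPL32, whose precursor is cleaved by the inner-membrane AAA protease before it joins the ribosome, stood at 0.76, 0.44, 0.32, 0.12 and 0.48 (difference 0.42 ± 0.12; limma, adjusted p = 0.0126). MRPL33 stood at 0.41, 0.80, 0.45, 0.40 and 0.04 (difference 0.42 ± 0.12; limma, adjusted p = 0.0172). MRPL19 stood at 0.54, 0.03, 0.39, 0.30 and 0.66 (difference 0.38 ± 0.12; limma, adjusted p = 0.0249). A single animal near the CJ level, a different one for each, marked MRPL32, MRPL33 and MRPL19. MRPS2 rose by 0.20 ± 0.06 (limma, adjusted p = 0.0259), with all 5 animals between 0.03 and 0.41.

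**Figure D1:**
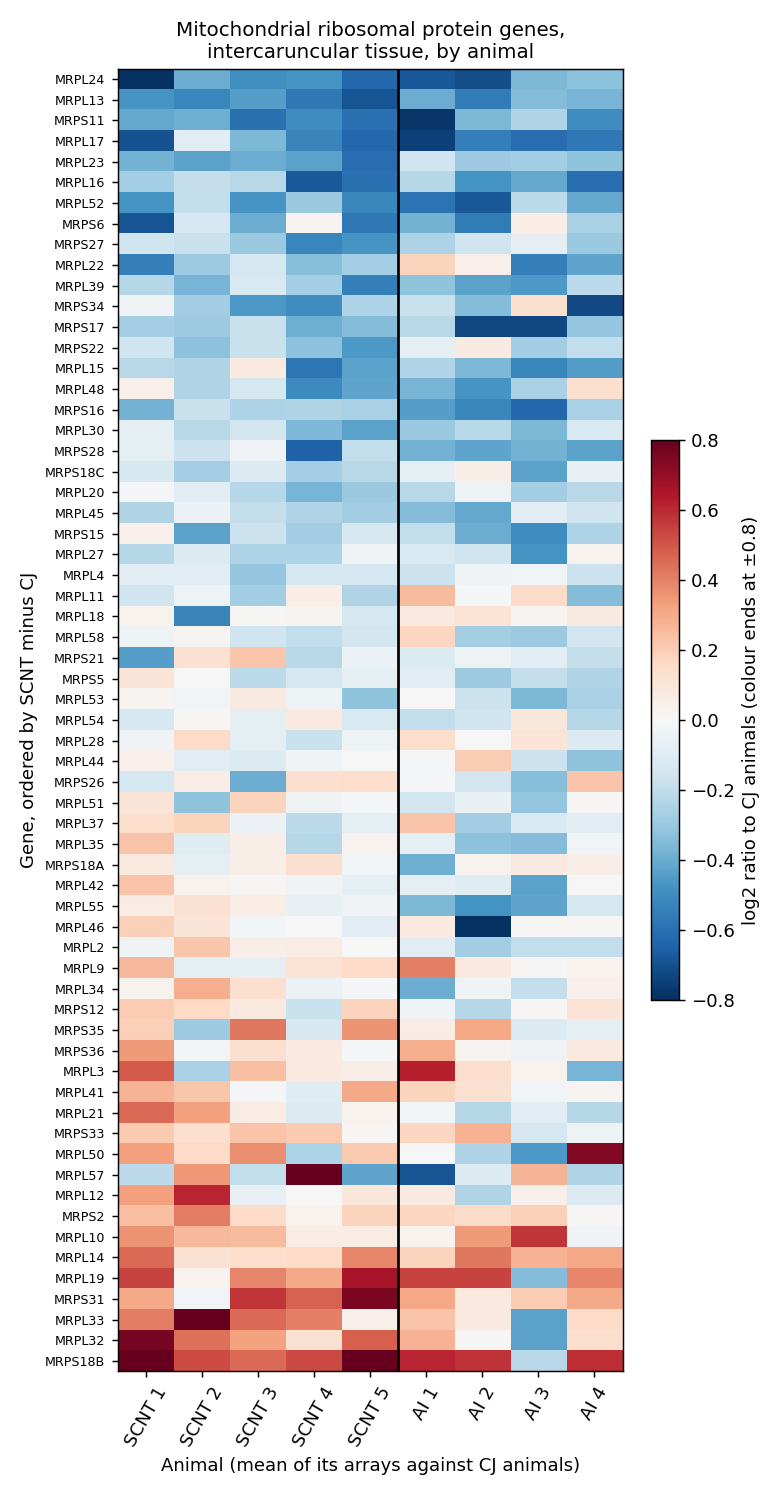
Each row is 1 of the 63 genes and each column 1 animal; colour gives the log2 ratio to CJ animals in intercaruncular tissue, averaged over the animal's arrays, and stops at ±0.8. The rows at the top (MRPL24, MRPL13, MRPS11) are blue in all 9 animals, and MRPS18B in the bottom row is red in all but AI animal 3 (-0.22).

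In AI animals, 17 of the 63 members were called against CJ in intercaruncular tissue, and 15 of these were lower. MRPL17, MRPS17, MRPL24 and MRPS16 were lowest, and MRPL14 and MRPL10 were the 2 that were higher. Of all probes tested 15.0% were called, 6.92% higher and 8.08% lower, beside 3.17% and 23.8% of the members. At an unadjusted p below 0.05 there were 31 members (49.2%, beside 24.9% of all probes). The median of the members was -0.15 beside 0.01 for all probes, and 15 of the 63 were above 0 (23.8%, beside 54.6% of all probes). Without AI animal 3 the members' median was -0.11, beside 0.004 for all probes. The medians of the 63 in AI animals 1 to 4 were -0.08, -0.16, -0.21 and -0.15. In SCNT animals 1 to 5 they were 0.02, -0.07, -0.07, -0.14 and -0.08. Both sets of arrays use the same CJ animals, so their values against CJ are not independent of each other.

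In AI animals MRPL17 stood at -0.75, -0.55, -0.61 and -0.57, a difference of -0.62 ± 0.13 or 1.54-fold lower (limma, adjusted p = 0.0016). MRPL24 stood at -0.68, -0.71, -0.36 and -0.33 (difference -0.50 ± 0.10; limma, adjusted p = 0.002). MRPL13 stood at -0.40, -0.56, -0.35 and -0.37 (difference -0.41 ± 0.08; limma, adjusted p = 0.00123). No AI animal reached the CJ level for these 3 genes. MRPL16 ran from -0.61 to -0.23 (difference -0.43 ± 0.09), MRPL52 from -0.68 to -0.21 (difference -0.43 ± 0.10) and MRPL15 from -0.52 to -0.24 (difference -0.41 ± 0.10), with adjusted p of 0.00324, 0.0043 and 0.00717 from limma. MRPL39 (-0.37), MRPL55 (-0.36), MRPL23 (-0.27) and MRPL45 (-0.23) completed the 10 large-subunit members that fell. MRPL45, which anchors the ribosome to the inner membrane, was the smallest of these differences.

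Of the small subunit, MRPS16 stood at -0.44, -0.52, -0.63 and -0.26 in AI animals 1 to 4. It had the smallest p of the members in this comparison (difference -0.49 ± 0.07; limma, adjusted p = 0.000139). MRPS17 stood at -0.22, -0.73, -0.73 and -0.31 (difference -0.53 ± 0.09; limma, adjusted p = 0.000449), so animals 2 and 3 carried most of it. MRPS11 stood at -0.78, -0.36, -0.24 and -0.50 (difference -0.44 ± 0.09; limma, adjusted p = 0.00256). MRPS28 was nearly the same in each animal, at -0.38, -0.42, -0.38 and -0.43 (difference -0.40 ± 0.10; limma, adjusted p = 0.0107). MRPS15 (-0.36) was the fifth small-subunit member that fell, and none rose.

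Set side by side, 11 members were lower than CJ in both SCNT and AI animals: MRPL13, MRPL15, MRPL16, MRPL17, MRPL23, MRPL24, MRPL39, MRPL52, MRPS11, MRPS16 and MRPS17. MRPL14 was higher in both. These comparisons share their CJ animals, so calls in common are not independent of each other. The share of all probes called lower in both was not counted, so whether the 11 exceed it was not tested. The 4 called lower in SCNT animals alone were MRPS6, MRPS27, MRPL22 and MRPS34, and the 4 in AI animals alone were MRPS28, MRPL55, MRPS15 and MRPL45. Without AI animal 3, MRPS34 (-0.42; limma, adjusted p = 0.0106) and MRPS6 (-0.40; adjusted p = 0.0369) were called lower in AI animals too, and MRPL45 (-0.20; adjusted p = 0.0209) in SCNT animals. A gene past the threshold in one comparison and not in the other is not thereby shown to differ between SCNT and AI animals. Of the 37 members with a counterpart in bacterial ribosomes, 11 were lower in SCNT and 11 in AI animals (29.7% in each). Of the 25 found in mitochondrial ribosomes alone 4 were lower in each (16.0%). Among all probes tested 11.3% were lower in SCNT and 8.08% in AI animals. The difference between these classes was not tested. No member was higher in one comparison and lower in the other.

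**Figure D2:**
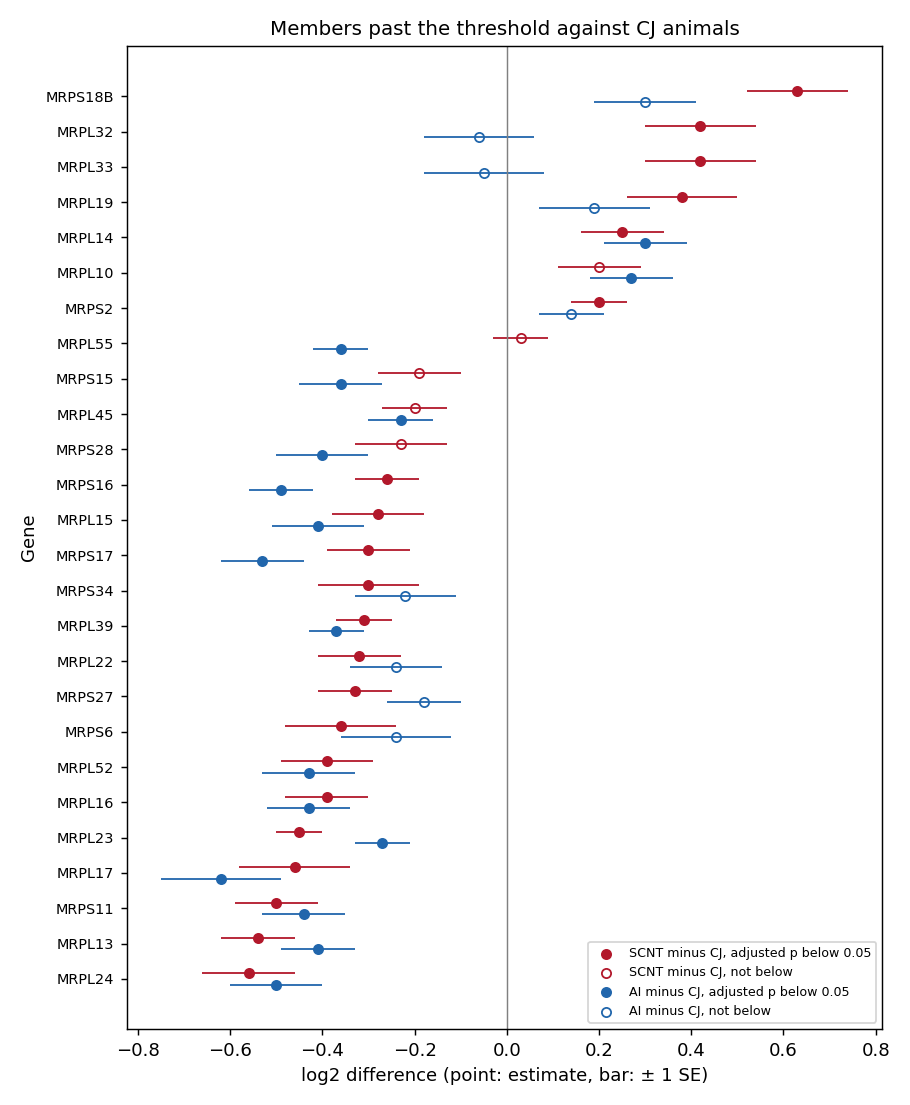
Points give the fitted log2 difference from CJ animals for the 26 members past the threshold in SCNT (red) or AI (blue) animals, bars give ± 1 SE, and open points did not pass. Most filled points lie left of 0, from -0.62 to -0.23, and MRPS18B lies furthest right at 0.63 in SCNT animals.

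MRPL14, MRPS21 and MRPL51 each had another probe, and for MRPL14 the probes disagreed. The probe used here rose in both groups, by 0.25 ± 0.09 in SCNT and 0.30 ± 0.09 in AI animals (limma, adjusted p = 0.0413 and 0.0247). Its other probe stood at -0.05 in SCNT animals (adjusted p = 0.69) and fell by 0.25 in AI animals (limma, adjusted p = 0.0147), so the direction of MRPL14 is uncertain. For MRPS21 the probe used here stood at -0.07 and -0.11 and was not called. Its other probe fell by 0.38 in SCNT and 0.31 in AI animals (limma, adjusted p = 0.00343 and 0.0251). Neither MRPL51 probe was called.

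MRPS18B and MRPL19, which rose in SCNT animals, were also high in 3 of the 4 AI animals. MRPS18B stood at 0.61, 0.58, -0.22 and 0.59 in AI animals 1 to 4, so AI animal 3 alone was below the CJ level. With this animal the AI difference was 0.30 ± 0.11 and was not called (limma, adjusted p = 0.072), and without it the difference was 0.59 ± 0.08 (limma, adjusted p = 2.83e-05). MRPL19 was alike, at 0.54, 0.54, -0.35 and 0.39, with 0.19 ± 0.12 over all 4 animals and 0.49 ± 0.10 (limma, adjusted p = 0.0021) without AI animal 3. MRPL32 stood at 0.28, 0.01, -0.43 and 0.14 and MRPL33 at 0.23, 0.08, -0.43 and 0.15, again lowest in AI animal 3, and neither was called with or without it. MRPL10 went the other way: at 0.03, 0.34, 0.57 and -0.03 it was highest in AI animal 3, and its rise of 0.27 ± 0.09 (limma, adjusted p = 0.047) became 0.11 ± 0.09 without that animal and was no longer called. Without AI animal 3, 19 members were called in AI animals (20.4% of all probes) and 28 in SCNT animals (27.5% of all probes). Of the 15 members lower in AI animals, 14 were still called lower, and MRPS15 missed the threshold at an adjusted p of 0.052.

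**Figure D3:**
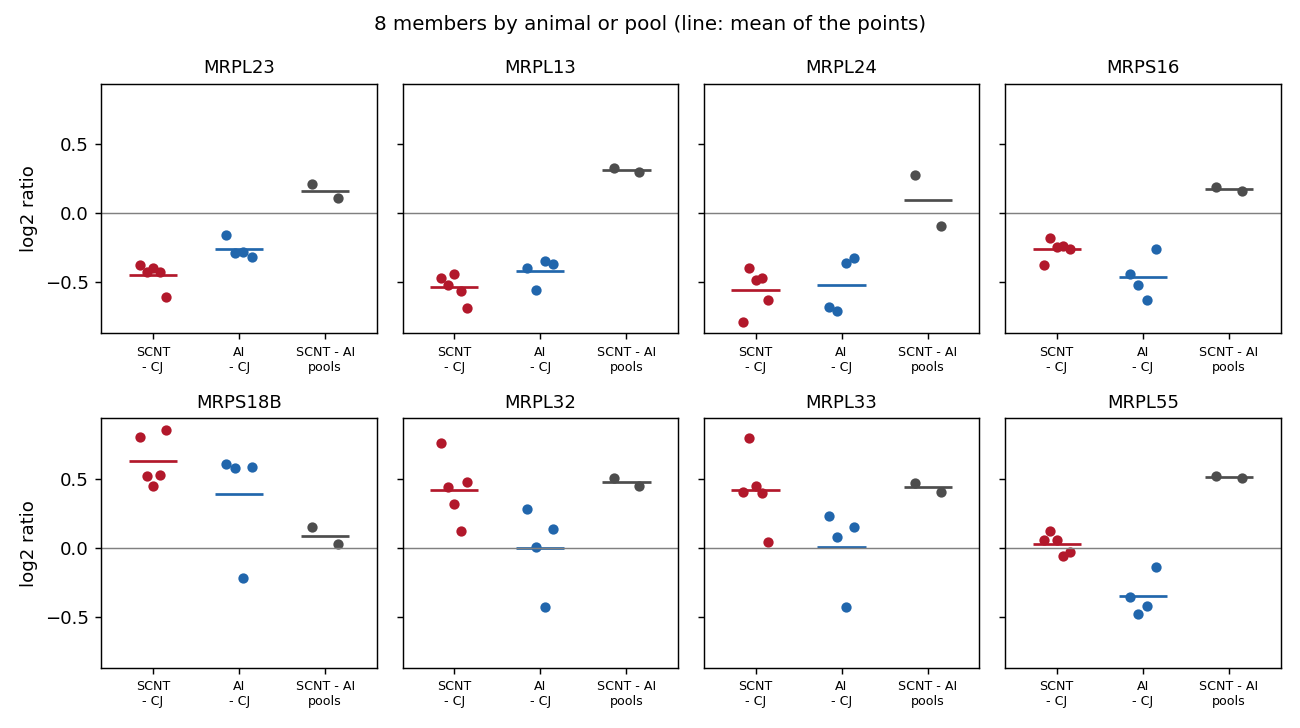
For 8 members, points give the log2 ratio of each SCNT animal (red) and AI animal (blue) to CJ in intercaruncular tissue and of each pair of SCNT and AI pools in caruncular tissue (grey); lines are means of the points. MRPL23, MRPL13, MRPL24 and MRPS16 lie below 0 in all 9 animals, while MRPS18B, MRPL32 and MRPL33 each have 1 AI animal apart, at -0.22, -0.43 and -0.43.

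Markers of other cell types moved with the same comparisons. All 7 stromal markers measured were lower in SCNT than in CJ animals, with a median of -2.85, and 4 of 7 were lower in AI animals. The median of the stromal markers ran from -2.83 to -2.39 in the 5 SCNT animals and from -2.59 to -2.38 in AI animals 1, 2 and 4, but was 0.50 in AI animal 3. Smooth muscle markers were lower for 5 of 8 in SCNT and 2 of 8 in AI animals, and proliferation genes for 4 and 3 of 11. Epithelial markers were higher for 3 and lower for 1 of 8 in SCNT animals, and higher for 2 in AI animals. Of 6 endothelial markers 2 were higher and 1 lower in SCNT animals, with CLDN5 at 0.76 and PECAM1 at -0.76, and in AI animals 1 was higher (CLDN5, 0.71) and 1 lower (PECAM1, -0.54). The 2 red cell markers lay between 0.04 and 0.07 in both comparisons. The 10 leukocyte markers ran from -0.09 to 0.26 in SCNT and from -0.02 to 0.40 in AI animals. Of 9 trophoblast markers 4 were higher in SCNT animals, and in AI animals the 9 ran from -0.02 to 0.45. The part of these shifts in the members' differences was not tested.

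SCNT and AI animals were compared through the shared CJ animals in the intercaruncular area and directly as pools in the caruncular area. In the intercaruncular area 1 of 63 members was called (1.59%, beside 0.282% of all probes, 0.253% higher and 0.0289% lower): MRPL55, a large-subunit protein without a bacterial counterpart (Entrez gene 506657). Its values against CJ were 0.06, 0.12, 0.06, -0.06 and -0.03 in SCNT animals and -0.36, -0.48, -0.42 and -0.14 in AI animals. The lowest SCNT animal was at -0.06 and the highest AI animal at -0.14, and the difference was 0.39 ± 0.08 (limma, adjusted p = 0.0387). At an unadjusted p below 0.05 there were 11 members (17.5%, beside 7.65% of all probes). MRPL32 (0.48 ± 0.15), MRPL33 (0.47 ± 0.16) and MRPL21 (0.28 ± 0.10) came next and were not called (limma, adjusted p = 0.332, 0.379 and 0.397). Without AI animal 3 MRPL55 was at 0.36 ± 0.09 and missed the threshold (limma, adjusted p = 0.284), and MRPL32 and MRPL33 were at 0.28 and 0.26.

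Between the caruncular pools the 4 members with the smallest p were MRPL55, MRPL32, MRPL33 and MRPL21. The same 4 came first in the intercaruncular area with AI animal 3 included. Without that animal, MRPL23 (-0.19 ± 0.08) and MRPL2 (0.25 ± 0.11) came before MRPL32 and MRPL33 there (limma, adjusted p = 0.904 and 0.948). MRPL55 stood at 0.52 and 0.51 in the 2 dye-swapped pairs, MRPL32 at 0.51 and 0.45, MRPL33 at 0.47 and 0.41 and MRPL21 at 0.34 and 0.45. Each was higher in the SCNT pool of both pairs, with fitted differences of 0.52, 0.48, 0.44 and 0.39. With 2 pairs none of the 63 members was called by limma (0.0% of all 13824 probes were), and the smallest adjusted p among members was 0.133, for MRPL55. At an unadjusted p below 0.05 there were 16 members (25.4%, beside 12.6% of all probes). With the 4 arrays taken as replicates, although they are dye swaps of only 2 pairs, limma called 3 members (MRPL55, MRPL32 and MRPL33) beside 1.86% of all probes.

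As a group the members lay above 0 in these pools. Of the 63, 54 were above 0 (85.7%, beside 50.9% of all probes), with a median of 0.13 beside 0.00. The medians in the pairs were 0.15 and 0.13, with 53 and 57 of the 63 above 0. In the intercaruncular area 45 of 63 lay above 0 (71.4%, beside 49.7% of all probes), with a median of 0.06. Members that were lower than CJ in both groups were mostly near or above 0 between the pools, such as MRPL13 at 0.33 and 0.30 and MRPS17 at 0.34 and 0.23. MRPL24 stood at 0.28 and -0.09, so its pairs disagreed. The shift was not particular to the members. Medians in these pools were 0.13 for 28 import genes, 0.21 for 10 translation factors and 0.31 for 68 respiratory chain and ATP synthase subunits. They were -0.05 for 15 assembly factors, -0.02 for 12 tRNA synthetases and 0.04 for 17 genes of mitochondrial DNA and RNA. In the same pools the 8 epithelial markers ran from -0.79 to -0.10 (median -0.34) and the 9 trophoblast markers from -0.02 to 2.24 (median 0.56). The part of these shifts in the members' values was not tested.

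**Figure D4:**
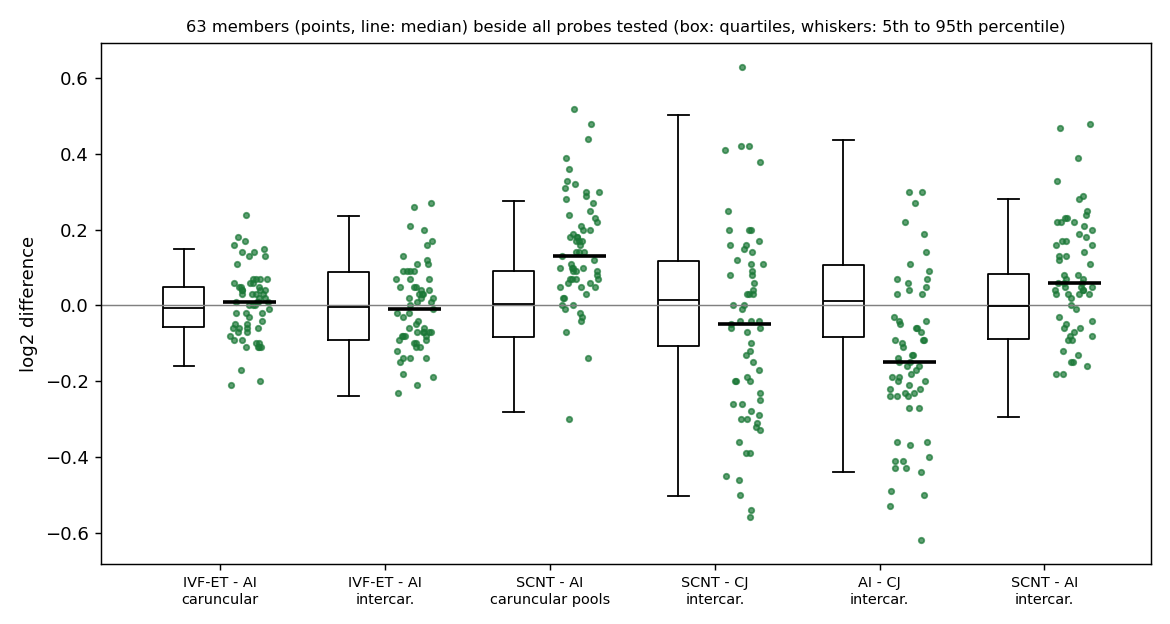
For each comparison, green points are the fitted log2 differences of the 63 members with their median as a line, and boxes give the quartiles of all probes tested with whiskers from the 5th to the 95th percentile. The members' median is 0.13 in the SCNT and AI pools and -0.15 in AI against CJ animals, and lies within 0.01 of 0 in both IVF-ET comparisons.

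IVF-ET and AI animals were compared in each area, and no member was called in either. In the caruncular area limma called 0 of 63 (0.0217% of all probes), with 7 at an unadjusted p below 0.05 (11.1%, beside 9.11% of all probes). In the intercaruncular area it called 0 of 63 (0.00724% of all probes), with 3 at an unadjusted p below 0.05 (4.76%, beside 9.30%). No other setting called a member in either area. The members' medians were 0.01 and -0.01, and their standard errors had medians of 0.07 and 0.10.

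In the caruncular area the smallest p belonged to MRPL45, at 0.37, 0.28, 0.34, 0.06 and 0.14 in IVF-ET animals 1 to 5 (difference 0.24 ± 0.07; limma, adjusted p = 0.397). MRPS17 followed at -0.14, -0.22, -0.50, -0.11 and -0.05 (difference -0.21 ± 0.06; limma, adjusted p = 0.402). MRPL2, of the peptidyl transferase region, and MRPS26 differed by -0.17 and 0.17. All 5 animals lay on one side of 0 for each of these 4 genes. In the intercaruncular area MRPL23 came first and was even across animals, at -0.21, -0.28, -0.19, -0.27 and -0.22 (difference -0.23 ± 0.08; limma, adjusted p = 0.469). MRPL4 (0.27 ± 0.12), MRPL14 (-0.19 ± 0.09) and MRPL58, a peptidyl-tRNA hydrolase built into the ribosome (-0.18 ± 0.09), followed with adjusted p of 0.511, 0.512 and 0.539 from limma.

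The difference between the areas was tested directly. Limma called 0 of 63 members (0.00723% of all probes), with 2 at an unadjusted p below 0.05 (3.17%, beside 7.74%). These were MRPL23, at 0.06 in the caruncular and -0.23 in the intercaruncular area (difference 0.30 ± 0.10; adjusted p = 0.574), and MRPL2, at -0.17 and 0.11 (difference -0.28 ± 0.11; adjusted p = 0.605). MRPL14 (0.19 ± 0.09) and MRPL41 (0.25 ± 0.13) came next, with adjusted p of 0.637 and 0.659. MRPL23 was thus the member with the smallest p in the IVF-ET intercaruncular loop and against CJ in SCNT animals, although only the latter passed.

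The other genes of mitochondrial expression were counted from fixed lists against CJ. Of 4 ribosomal proteins with other symbols, differences in SCNT animals ran from -0.32 to 0.03 without a call, and 1, CHCHD1, fell in AI animals (-0.25 ± 0.08; limma, adjusted p = 0.0338). Of 15 assembly factors 1 fell in SCNT animals (MPV17L2, -0.29) and 1 rose in AI animals (DHX30, 0.24). Of 10 translation factors and mRNA-binding partners 2 fell in SCNT animals and 3 in AI animals, among them SLIRP, a stabiliser of mitochondrial messages (-0.36 and -0.37), and TUFM, the elongation factor (-0.35 in AI animals). Of 12 tRNA synthetases 2 fell in SCNT animals and 1 in AI animals, with CARS2 at -0.44 and -0.34. Most genes of these lists were not called in either comparison.

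Genes of mitochondrial DNA and RNA upkeep included a large rise. PNPT1, an RNA-degrading enzyme that interferon also induces, was at 1.41 ± 0.24 in SCNT and 0.95 ± 0.24 in AI animals (limma, adjusted p = 0.000147 and 0.00966). POLG2, a subunit of the mitochondrial DNA polymerase, rose by 0.38 and 0.28, and SSBP1, the single-strand binding protein of mitochondrial DNA, fell by 0.55 and 0.44. These 3 were the only calls among 17 genes of this list in each comparison.

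The import machinery and the respiratory chain are given beside the members as the nearest nuclear-encoded sets. Of 28 import genes 7 fell and 2 rose in SCNT animals, and 13 fell and 1 rose in AI animals, with medians of -0.14 and -0.23. TIMM50 of the inner-membrane translocase fell by 0.55 in SCNT animals, and TIMM23, its channel subunit, fell by 0.45 in AI animals. Of 68 subunits of the respiratory chain and ATP synthase 21 rose and 4 fell in SCNT animals, and 1 rose and 21 fell in AI animals, with medians of 0.08 and -0.15. In SCNT minus AI, 8 of the 68 were called higher, with a median of 0.30, beside 1 of the 63 members with a median of 0.06. Over all probes, SCNT minus AI calls fell from 39 to 8 without AI animal 3. The counts of the import and respiratory chain lists are given only with that animal. The difference between the lists was not tested.

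**Figure D5:**
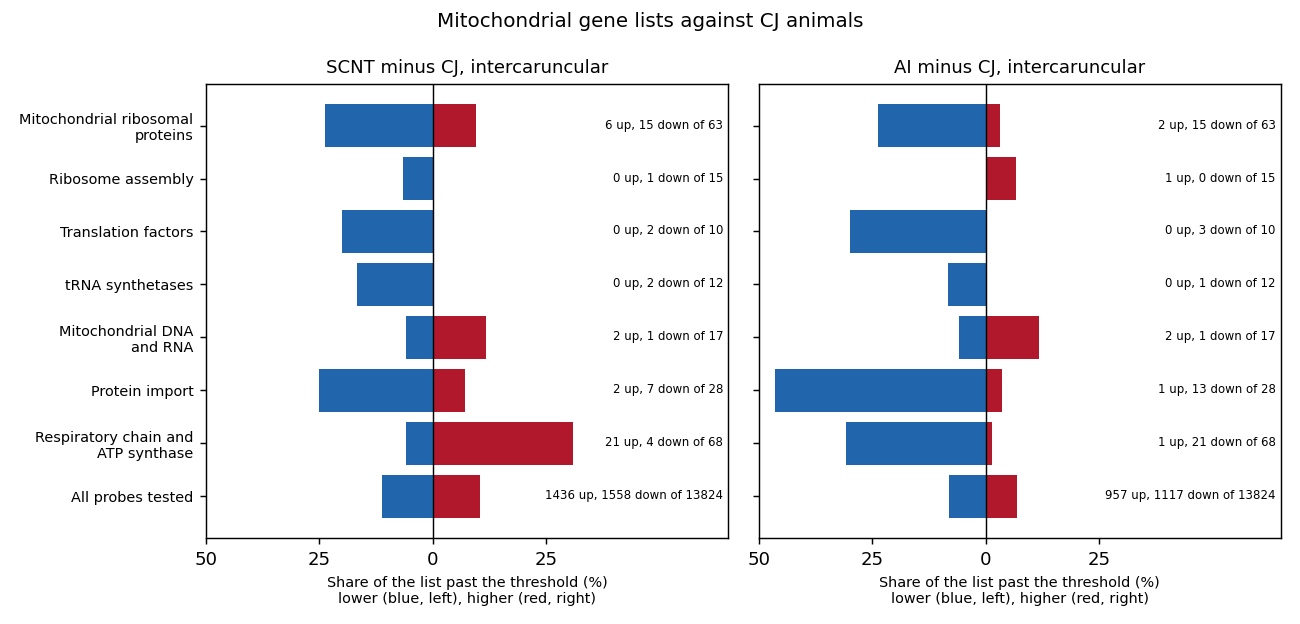
Bars give the share of each list called lower (blue, left) and higher (red, right) against CJ animals, with the counts at the right of each row. The members have 15 lower calls in each comparison, while the respiratory chain list changes from 21 higher and 4 lower in SCNT animals to 1 higher and 21 lower in AI animals.

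Over the 20 arrays against CJ, the values most like those of MRPL23 were those of RNASEH2C (Pearson r = 0.85), METTL22 (0.81) and VIPAS39 (0.80). The closest members were MRPS27 (0.66), MRPS2 (0.54) and MRPL37 (0.53). These arrays share CJ animals, and the correlations are descriptions over arrays. The rise of MRPS18B was also set beside its neighbours, chosen after its values were seen. Of the 12 nearest protein-coding genes in the RefSeq table for the assembly ARS-UCD2.0, 10 were measured, and none was called higher in SCNT or AI animals. The highest were C23H6orf136, at 0.24 in SCNT and 0.21 in AI animals (limma, adjusted p = 0.0781 and 0.183), and PRR3, at 0.06 and 0.21. The adjacent genes ATAT1 and PPP1R10 were at 0.01 and -0.12 in SCNT animals, and GNL1 fell by 0.30 and 0.36.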

How the data were processed

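The deposited table holds log2 ratios of 44 two-channel arrays made by the authors. How background and dye bias were treated is not stated in the labels or the table. The log2 base was tested on the values: 331 values below -4 all lay on the grid of a log2 of a ratio with 4 decimals (within 6e-05), and array medians ran from -0.0164 to 0.0124. Of 13824 probes, each the mean of 2 spots, 8645 had 1 symbol, 105 several and 5074 none, and only the first were named. All 63 member symbols matched the gene table. Group and dye terms were fitted by generalised least squares, with animals as a random effect. Both sets of arrays against CJ were fitted together. The correlations were 0.13, 0.00, 0.01 and 0.12 for the 2 IVF-ET loops, their difference and the CJ fit. Variances were then moderated with limma 3.58.1 (R 4.3.3), and p-values marked limma come from these moderated statistics. The pool pairs were tested against 0. Probes needed a value on 80% of arrays. The threshold was an adjusted p of 0.05 over all probes. P-values of the loops and the CJ fit rest on the spread between arrays. Arrays that share an animal are linked only by the correlations above, which are the same for all probes. For the pools, each probe had 2 pair values, and limma drew their spread toward a value common to all probes. Their p-values therefore measure only in part a gene's own spread between pairs. The members' standard errors there had a minimum and a median of 0.08. Pipelines were tested on simulated data. Named members are those past the threshold, up to 10 in each direction, or the 4 of smallest p, and other lists name up to 4. The members, the other lists and the marker lists were chosen with earlier results of these data known. No sequences were used here.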

Additional observations from a re-analysis of the deposited data

Results flagged for a closer look

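Of 256 sets of 4 or 5 animals' values tested, over the 63 members and their medians, 11 held 1 animal far from the others by Dixon's test. Chance flags about 1 in 20 such sets. Among members past a threshold, MRPL23 stood at -0.61 in SCNT animal 5, below the -0.43 to -0.38 of the other SCNT animals. MRPS18B stood at -0.22 in AI animal 3, the animal that was also apart for ISG15, beside 0.58 to 0.61 in the other AI animals. MRPS28 stood at -0.65 in SCNT animal 4 and at 0.26 in IVF-ET animal 4 of the caruncular loop, and MRPS16 at -0.16 in IVF-ET animal 5 of that loop. MRPS11 stood at 0.58 and MRPL34 at 0.35 in IVF-ET animal 4 of the intercaruncular loop. Against CJ, MRPL4 stood at -0.31 in SCNT animal 3, MRPL53 at -0.32 in SCNT animal 5, MRPL46 at -0.79 in AI animal 2 and MRPS18A at -0.39 in AI animal 1. No cause was tested for any of these.

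MRPL55 is listed because its values against CJ differed between SCNT and AI animals, by 0.39 ± 0.08 (limma, adjusted p = 0.0387). Over the alternatives its adjusted p ran from 0.0248 to 0.284.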

How the results depend on the processing

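No member named by the rule given above changed direction under any alternative. Other called members were not checked for this. Medians near 0 did change sign: from 0.01 to -0.01 in the IVF-ET caruncular loop with the first spot alone, and, on leaving out 1 animal, from -0.01 to as high as 0.03 in the intercaruncular loop and from 0.02 to as low as -0.02 for the area difference. Without the animal correlation 26 members were called in AI minus CJ, beside 17, and 19.4% of all probes, beside 15.0%. With 4 arrays as replicates 3 were called between the pools, beside 0, and 1.86% of all probes, beside 0.0%. In SCNT minus AI the count fell from 1 to 0 with no dye term, with the first spot alone and with 1 dye term per set of arrays. Leaving out 1 animal at a time gave 13 to 28 calls in SCNT minus CJ, lowest without CJ animal 4 (14.8% of all probes) and highest without AI animal 3 (27.5%), 12 (without CJ animal 5, which called 1312 of 13824 probes) to 23 (without CJ animal 3, which called 2768) in AI minus CJ, and 0 to 1 in SCNT minus AI, where 12 of 14 such settings gave 0 (0.0579% to 0.383% of all probes over the 14). It gave medians of -0.04 to 0.03 in the IVF-ET intercaruncular loop, and 0.13 to 0.15 for the pools with 1 pair left out, a value with no test. MRPS18B, MRPL24, MRPL13, MRPS11, MRPL23 and MRPL16 kept their SCNT minus CJ call in all 22 alternatives, and MRPL17, MRPS17, MRPL24, MRPS16, MRPS11, MRPL52, MRPL16 and MRPL13 kept theirs in AI minus CJ. MRPL55 lost its SCNT minus AI call in 15 of 22. MRPL14 lost its call in 11 of 22 in SCNT and 7 in AI animals, MRPL10 in 14 and MRPS6 in 11. In SCNT minus CJ, MRPL19 and MRPS2 lost theirs in 8 each, MRPL22 in 5, MRPL33 in 4 and MRPL32 in 2, so of the 6 members that rose only MRPS18B kept its call throughout. The cause was not tested. The labels give the compared groups no shared replicate numbers, so no block by number was fitted between groups. The 5 IVF-ET and 3 AI animals measured in both areas were used as a block across areas, which called 0 members in the area difference. The 4 or 5 animals a group limit the precision.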

Other observations

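MRPL57, a large-subunit protein found in mitochondrial ribosomes alone, had the largest spread among SCNT animals of any member (SD 0.70, n = 5) and was not called in any comparison. It was named here after its values were seen. Against CJ it stood at 1.31 in SCNT animal 4 and at -0.21, 0.35, -0.20 and -0.42 in SCNT animals 1, 2, 3 and 5. In AI animals 1 to 4 it stood at -0.69, -0.11, 0.27 and -0.24. The pool pairs also disagreed, at -0.71 and 0.11. Its 2 spots had the highest correlation of the members over the 44 arrays, 0.935. The median of the trophoblast markers was 1.48 in SCNT animal 4 and 0.01 to 0.54 in the other SCNT animals, and whether this bears on MRPL57 was not tested.

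MRPS31 was not called in either comparison with CJ but stood at 0.30, -0.02, 0.57, 0.47 and 0.75 in SCNT animals 1 to 5 and at 0.31, 0.08, 0.20 and 0.30 in AI animals. It was named here after its values were seen. Without AI animal 3 its SCNT difference of 0.41 ± 0.09 passed the threshold (limma, adjusted p = 0.00154). It also passed without CJ animal 4 (0.43 ± 0.12; limma, adjusted p = 0.0243). Its values under the other alternatives are not given, so MRPS31 is not counted as called.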
